A study of Mus musculus with 6 samples.

Results

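The genes whose symbol starts with Kcn encode the subunits of potassium channels and a few RNAs and regulators named after them. Of 23366 genes listed in the deposited table, 95 have such a symbol, and 26 of these had a mean of at least 10 normalized counts (reads scaled by 1 factor per library) over all 6 libraries. The 26 comprise 18 pore-forming subunits, 6 accessory subunits and 2 other genes, the cytosolic regulator Kcnrg and the antisense RNA Kcnq1ot1. Of the 69 left out, 28 were listed at 0 in every library. The least abundant gene kept was Kcnk6, with a mean of 10.0, and the most abundant one left out was Kcne4, with 9.75.

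Potassium channels let potassium leave the cell and so hold the membrane potential negative. In each channel, pore-forming (alpha) subunits build the conducting pore, and accessory subunits bind to them and alter their gating, inactivation or transport to the membrane. In Schwann cells, potassium channels are known for setting the resting potential, for taking up potassium around active axons and for currents that accompany proliferation.

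RNA came from SC4 cells, a mouse line of Nf2-null Schwann cells from a schwannoma, a nerve sheath tumour; Nf2 encodes the tumour suppressor merlin. Both groups share the Nf2 loss and come from this line. Cells received a control siRNA or YAP Smartpool siRNA, a pool against YAP, the transcriptional co-activator restrained by the Hippo pathway, and were collected after 48 hours, with 3 libraries per group numbered 1 to 3. Whether the 3 come from separate cultures is not said in the labels, so the p-values cover the spread between these libraries alone, which may be technical. In such bulk RNA fewer expressing cells and less RNA per cell cannot be told apart.

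Libraries held 18025132 to 60078880 reads in genes, so that 1 read was worth 0.461 to 1.52 normalized counts. Yap1, the target of the pool, had 4749.6, 5732 and 4751 normalized counts in control replicates 1, 2 and 3 and 936, 571 and 475 after YAP siRNA. Replicate 1 stood apart from replicates 2 and 3 in both groups, and same-numbered libraries deviated together. Replicates 2 and 3 also deviated together across numbers, so that pairs 2 and 3 are not clearly told apart by the data. Without pairing, limma passed 0 of 12820 tested genes at a threshold of 0.05 for the adjusted p, although 1558 had a raw p below it; edgeR called 0 and DESeq2 729. With replicate numbers entered as a block, limma passed 8.32% of tested genes higher and 8.96% lower, 17.3% in all. The words rose and fell are kept for genes that passed this blocked fit, which holds for none of them in limma without it. Of 16 Schwann lineage markers 12 had a mean of at least 10, but 4 did not, Sox10, S100b and Gfap among them, while 5 of 6 fibroblast markers did, with Col1a1 and Col1a2 the most abundant markers of all lists. Of 5 muscle markers Myod1 and Myog were listed at 0, and the summed level of the list was 92.6 to 132 in the controls and 118 to 951 after YAP siRNA, with Acta2 at 28.8 to 73.7 and 85.3 to 830.4; its part in the results below was not tested.

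Per kilobase of annotated exon, the calcium-activated channel gene Kcnn4 stood far above all other potassium channel genes in the controls. Its level there was 563 ± 17.5 normalized counts per kb (SD, n = 3). The next were Kcnk2, with 145 ± 15.3, Kcnf1, with 144 ± 77.8, and Kcnh2, with 97.9 ± 64.9, and these 3 neighbours did not differ beyond their spread. The most abundant accessory subunits in the controls were Kcnip1, with 84.5 ± 28.6, Kcnab2, with 81.8 ± 46.8, and Kcnmb4, with 67.9 ± 54.0, again within their spread of one another. After YAP siRNA Kcnn4 remained first, at 300.5 ± 54.2 per kb, and Kcnmb2 moved from rank 10 among the 24 subunits, at 30.4 ± 3.99, to rank 2, at 178 ± 106. These levels of Kcnn4 and Kcnmb2 after YAP siRNA were not separated beyond their spread, although Kcnn4 was the higher in each library (363 against 56.1, 274 against 224 and 265 against 253). Kcnh5 moved from rank 12 to rank 21. Counted over the 77 pore-forming genes listed, and not per length, Kcnn4 alone held 62.6%, 48.3% and 46.0% of normalized counts in control replicates 1, 2 and 3 and 51.7%, 41.1% and 39.8% in YAP siRNA replicates 1, 2 and 3. The share was lower in each same-numbered pair, while the ranges of the groups overlap; the difference was not tested.

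**Figure D1:**
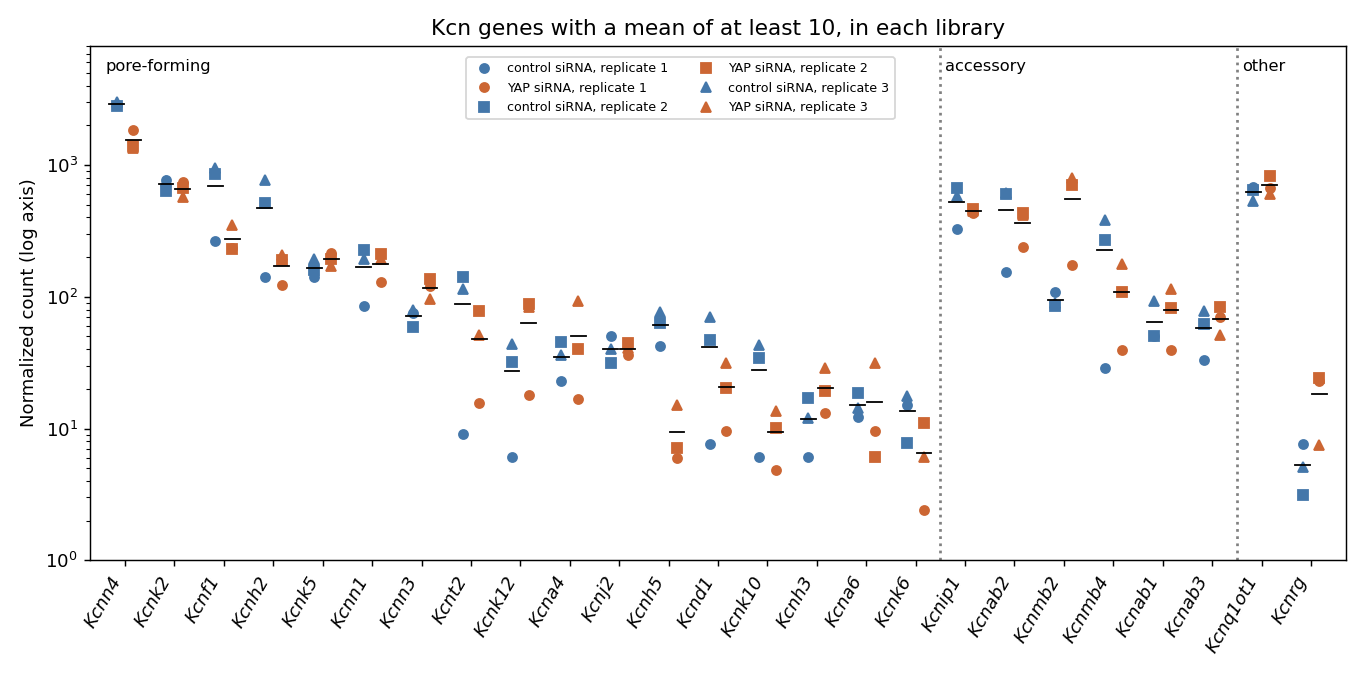
Normalized counts (log axis) of 25 of the 26 Kcn genes with a mean of at least 10, blue for control siRNA and orange for YAP siRNA, with 1 marker shape per replicate number and a black bar at each group mean. Kcnn4 lies above the other pore-forming genes in every library, Kcnmb2 is higher and Kcnh5 lower in all 3 YAP siRNA libraries, and replicate 1 lies low in both groups for genes such as Kcnt2, Kcnmb4 and Kcnd1.

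Among the 18 pore-forming subunits tested, 1 was higher and 4 were lower after YAP siRNA in the blocked fit, against 8.32% and 8.96% of all genes. Kcnn4, Kcnh5, Kcnf1 and Kcnh2 fell and Kcnk12 rose. The median log2 fold change of the 18 was −0.18 and that of all tested genes 0.0094; here and below, fold changes are differences of log2(value + 1), which understate those of low genes. Among the 6 accessory subunits 1 was higher, Kcnmb2, and 0 were lower, with a median of 0.04. At an unadjusted p under 0.05 limma with the block also gave 1 and 0, against 2184 higher and 2222 lower of all 12820 genes. With the block, edgeR and DESeq2 called 0 lower at the adjusted threshold, but each had 1 lower at an unadjusted p under 0.05. Over all 12820 genes, edgeR had 1289 lower at the adjusted threshold and 2290 at the unadjusted one, and DESeq2 1308 and 2009. The shares called in both roles rest on few genes. Leaving out 1 library moved the medians to between −0.53 (control replicate 1 left out) and 0.018 (YAP siRNA replicate 1 left out) for the pore-forming and between −0.26 (control replicate 1 left out) and 0.35 (control replicate 3 left out) for the accessory genes. In limma without pairing no Kcn gene passed. An unadjusted p under 0.05 was found there for 4 of the 26 (Kcnn4, Kcnh5, Kcnmb2 and Kcnn3), against 12.2% of all tested genes. DESeq2 without pairing called Kcnmb2 higher and Kcnn4 and Kcnh5 lower, where it called 5.69% of all genes. The groups did not overlap for 4 of the 26 genes, these same 4, with Kcnmb2 and Kcnn3 above and Kcnn4 and Kcnh5 below the controls; over all genes they did not overlap for 9.47% and 9.49%, 19.0% in all.

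**Figure D2:**
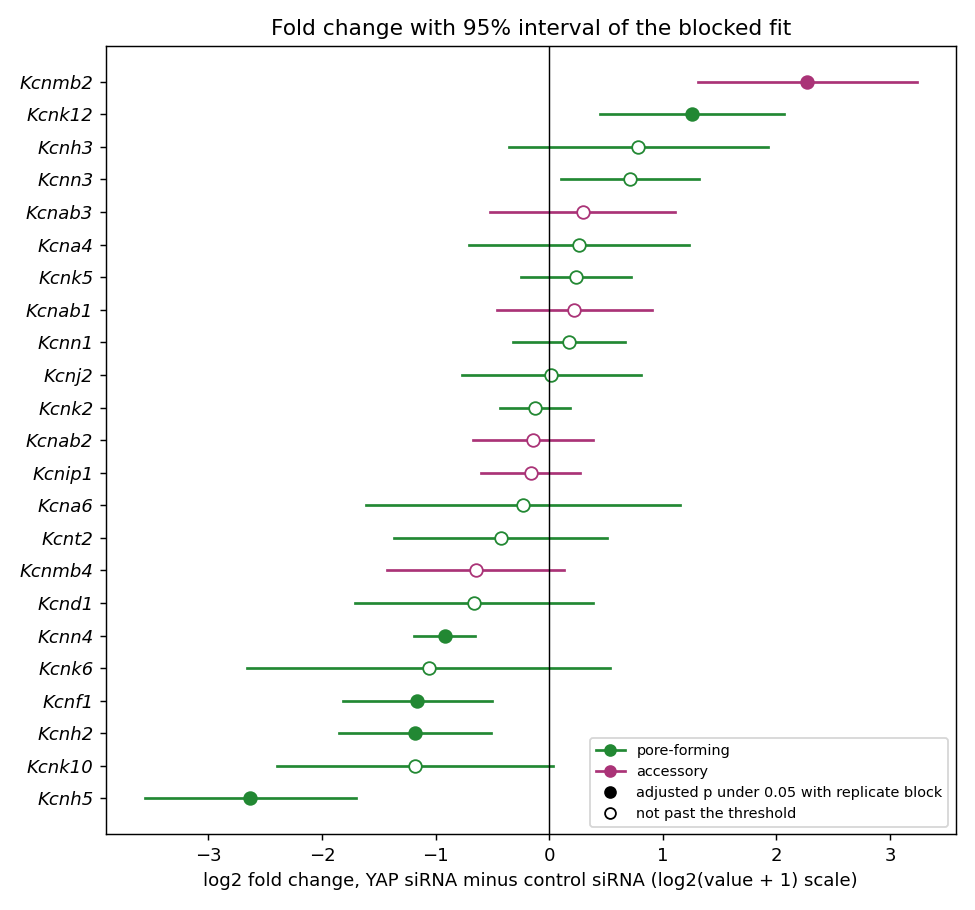
Log2 fold change (YAP siRNA minus control siRNA, log2(value + 1) scale) of 23 of the 24 subunits, with the 95% interval from limma with the replicate number as a block; green is pore-forming, purple accessory, and filled points passed an adjusted p of 0.05. The interval of Kcnh5, −3.56 to −1.70, lies lowest and that of Kcnmb2, 1.31 to 3.24, highest.

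The promoters of the 3 subunit genes that passed and whose groups did not overlap are printed to show what stands at their annotated starts. They are RefSeq windows on GRCm38.p6, an assembly other than the mm9 build named for the deposited files, 250 bases before to 50 after the start, 5′ to 3′ on the strand of the gene. Capitals mark GGAATG or its reverse complement CATTCC, the core motif bound by TEAD factors, the DNA-binding partners of YAP. The windows are chr7:24370013-24370312 (plus strand) for Kcnn4, chr12:75177283-75177582 (minus strand) for Kcnh5 and chr3:31902453-31902752 (plus strand) for Kcnmb2.
Kcnn4: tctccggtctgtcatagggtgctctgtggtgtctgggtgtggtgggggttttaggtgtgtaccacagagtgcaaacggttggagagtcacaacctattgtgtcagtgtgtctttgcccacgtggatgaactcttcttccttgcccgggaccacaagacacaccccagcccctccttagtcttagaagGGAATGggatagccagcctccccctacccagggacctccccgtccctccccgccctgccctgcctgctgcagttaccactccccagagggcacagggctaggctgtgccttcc
Kcnh5: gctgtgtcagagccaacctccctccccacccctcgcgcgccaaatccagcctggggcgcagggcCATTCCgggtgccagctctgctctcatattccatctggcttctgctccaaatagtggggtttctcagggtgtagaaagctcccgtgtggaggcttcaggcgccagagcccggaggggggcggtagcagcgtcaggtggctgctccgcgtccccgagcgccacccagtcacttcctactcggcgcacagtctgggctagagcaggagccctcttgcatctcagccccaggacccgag
Kcnmb2: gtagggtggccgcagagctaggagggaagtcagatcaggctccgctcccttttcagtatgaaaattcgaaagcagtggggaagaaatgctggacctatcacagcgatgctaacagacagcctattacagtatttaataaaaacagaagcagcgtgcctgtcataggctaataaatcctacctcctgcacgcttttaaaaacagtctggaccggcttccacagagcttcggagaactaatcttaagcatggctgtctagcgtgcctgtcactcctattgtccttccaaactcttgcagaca
The motif occurs once in the Kcnn4 window, 63 bases before the start, once in that of Kcnh5, 186 bases before it, and not in that of Kcnmb2. Among the other subunit genes that passed, Kcnk12, which rose, holds it once, 150 bases before the start. Kcnf1 and Kcnh2, which fell, do not hold it, so the motif did not follow the direction of change. Of 32851 such windows, 14.7% hold it on either strand. For 21 of the 26 genes 32 windows were found, since some genes have several annotated starts, and 5 of these windows hold it, a share near that of all windows (Kcnn4, Kcnh5, Kcnk2, Kcnk10 and Kcnk12). The AP-1 motif TGANTCA, its own reverse complement, occurs in 7.81% of all windows and, among these genes, in a window of Kcnk2 alone. A match is a description of the letters, and these windows say nothing of distal sites.

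Kcnn4 encodes KCa3.1, the intermediate-conductance channel that opens when calcium binds the calmodulin held on its tail. It had 2865, 2801 and 2978 normalized counts in control replicates 1, 2 and 3 and 1856, 1402 and 1353 in YAP siRNA replicates 1, 2 and 3. The controls were close together, and each YAP siRNA library was below all of them, replicate 1 the least so. The mean fell from 2881 ± 89.7 to 1537 ± 277 (SD, n = 3), to 53.3% of the control, with a log2 fold change of −0.92 (SE 0.118; limma adjusted p, blocked 0.00277 and unblocked 0.164). By a two-sided exact permutation test p was 0.1, which is the lowest value possible with 3 libraries in each group. It was the only Kcn gene to pass without replicate 2 of both groups (limma adjusted p = 0.0320 with the block), and did not pass in limma without a mean-variance trend (0.0803 with the block). Without the trend the blocked fit called only 12 higher and 18 lower of all 12820 tested genes, so losing a call there is general and not particular to this gene.

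The other members of this family are the small-conductance channels, which share the calmodulin gate. Kcnn3 (SK3) had 75.9, 58.5 and 79.3 normalized counts in the controls and 120.2, 135 and 96.4 after YAP siRNA. All 3 YAP siRNA libraries were above the controls, but the log2 fold change of 0.71 did not pass (95% interval 0.10 to 1.32, limma adjusted p = 0.0989 with the block), and passed only without replicate 1 of both groups (0.0298). Kcnn1 (SK1) had 85.0, 228 and 192 in the controls and 129.8, 212 and 193 after YAP siRNA, with replicate 1 lowest in both groups and the groups overlapping. Kcnn2 was listed at 0. Summed over the family, the controls held 3026, 3087 and 3249 normalized counts and the YAP siRNA libraries 2106, 1749 and 1643, most of them from Kcnn4.

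The ether-à-go-go family, voltage-gated channels with a PAS domain, had 3 of 8 listed members tested. Kcnh5 (EAG2) had 42.5, 63.1 and 76.5 normalized counts in control replicates 1, 2 and 3 and 6.01, 7.06 and 15.1 after YAP siRNA, the last from 5, 7 and 10 reads. The highest YAP siRNA library was well below the lowest control. Its mean fell from 60.7 ± 17.1 to 9.38 ± 4.95 (SD, n = 3), the largest fall by log2 fold change of the 24 subunits, at −2.63 (SE 0.408; limma adjusted p, blocked 0.00576 and unblocked 0.165). The fall was similar in the 3 same-numbered pairs, with log2 ratios of −2.63, −2.99 and −2.27. The call was lost without replicate 2 of both groups (limma adjusted p = 0.0680 with the block), and Kcnh5 alone among Kcn genes passed without a mean-variance trend (0.0483).

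Kcnh2 encodes ERG1, known for the repolarizing current of the heart. It had 141, 517 and 765 normalized counts in the controls and 123, 189 and 206 after YAP siRNA, so that control replicate 1 lay among the YAP siRNA libraries while control replicates 2 and 3 lay far above them. The log2 ratios in pairs 1, 2 and 3 were −0.20, −1.45 and −1.89. It fell from 474 ± 314 to 173 ± 44.2 (SD, n = 3; log2 fold change −1.18 with an SE of 0.293; limma adjusted p, blocked 0.0291 and unblocked 0.527), and the call was lost without replicate 2 (0.179), without replicate 3 (0.0747) and without a trend (0.151), all with the block. The third member, Kcnh3 (ELK2), had 6.07, 17.1 and 12 in the controls and 13.2, 19.2 and 28.6 after YAP siRNA, with overlapping groups and a 95% interval of −0.36 to 1.92.

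Kcnf1 encodes Kv5.1, a modifier alpha subunit that forms no channel alone and joins Kv2 subunits in mixed channels. Its normalized counts were 263, 848 and 954 in the controls and 234, 230.1 and 351 after YAP siRNA. As with Kcnh2, replicate 1 differed little between the groups and replicates 2 and 3 differed strongly, the log2 ratios being −0.16, −1.88 and −1.44. It fell from 688 ± 372 to 272 ± 68.7 (SD, n = 3; log2 fold change −1.16 with an SE of 0.286; limma adjusted p, blocked 0.0281 and unblocked 0.443), with the call lost without replicate 2 (0.204) and without a trend (0.156). The other 9 modifier genes listed were at 0 in all libraries except Kcng3, with 2 reads in control replicate 3.

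Two-pore channels carry the background potassium current, and 5 of 14 listed members were tested. Kcnk12 (THIK-2) was the pore-forming subunit that rose, from 27.3 ± 19.3 to 62.9 ± 38.9 normalized counts (SD, n = 3). It had 6.07, 32 and 43.8 in the controls and 18.0, 87.8 and 82.9 after YAP siRNA. Each YAP siRNA library was above the control of the same number, with log2 ratios of 1.43, 1.43 and 0.91, although YAP siRNA replicate 1 lay below control replicates 2 and 3. The log2 fold change was 1.25 (SE 0.355; limma adjusted p, blocked 0.0436 and unblocked 0.663). Control replicate 1 held 4 reads of it, and the call was lost without replicate 2 (0.348), without replicate 3 (0.149), with DESeq2 (0.0642), without a trend (0.0761) and with no filter on low values (0.0781), all with the block.

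The most abundant two-pore gene was Kcnk2, which encodes TREK-1, a channel opened by membrane stretch and by lipids. It had 768, 629.8 and 753 normalized counts in the controls and 738, 664 and 573 after YAP siRNA, with overlapping groups and a log2 fold change of −0.12 (95% interval −0.44 to 0.19 with the block). Its relative Kcnk10 (TREK-2) had 6.07, 34.3 and 42.9 in the controls and 4.81, 10.1 and 13.6 after YAP siRNA. The YAP siRNA mean was 34.2% of that in the controls, but it did not pass (95% interval −2.40 to 0.032, limma adjusted p = 0.155 with the block). Kcnk5 (TASK-2), a channel opened by alkaline pH, had 165 ± 26.1 and 193 ± 22.5 (SD, n = 3), and Kcnk6 (TWIK-2) 13.5 ± 5.07 and 6.51 ± 4.37; for both the groups overlapped and the interval included 0.

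No other pore-forming gene passed. The sodium-activated channel gene Kcnt2 (Slick) had 9.10, 141 and 114 normalized counts in the controls and 15.6, 77.7 and 51.2 after YAP siRNA, a pattern dominated by low values in replicate 1 of both groups. Kcnd1 (Kv4.1) behaved likewise, with 7.59, 46.8 and 70.0 and 9.62, 20.2 and 31.6. Their log2 ratios changed sign between pairs, being 0.72, −0.85 and −1.14 for Kcnt2 and 0.31, −1.17 and −1.12 for Kcnd1. The inward rectifier gene Kcnj2 (Kir2.1), the one tested member of 15 listed, had group means of 40.4 ± 9.45 (control) and 40.4 ± 4.18 (YAP siRNA; SD, n = 3), and its log2 fold change, 0.018, had a 95% interval from −0.77 to 0.81. The A-type channel gene Kcna4 (Kv1.4) had 34.6 ± 11.3 and 50.2 ± 39.2, where YAP siRNA replicate 3 alone was above every control. Kcna6 (Kv1.6) had 15.0 ± 3.35 and 15.8 ± 13.9.

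Kcnmb2, which encodes a beta subunit that inactivates the large-conductance calcium-activated (BK) channel, showed the largest rise among the subunits. Its normalized counts were 109, 85.7 and 90.3 in control replicates 1, 2 and 3 and 176, 700.4 and 793 in YAP siRNA replicates 1, 2 and 3. The controls were close together, YAP siRNA replicate 1 was moderately above them, and replicates 2 and 3 were far above. The ratio of YAP siRNA to control was 1.61 in pair 1, 8.17 in pair 2 and 8.78 in pair 3. The mean (SD, n = 3) rose from 95.1 ± 12.5 to 556 ± 333 (log2 fold change 2.27 with an SE of 0.423; limma adjusted p, blocked 0.0106 and unblocked 0.226). The call was lost without replicate 2 of both groups (0.0680) and without a mean-variance trend (0.118), both with the block, and without pairing it passed when YAP siRNA replicate 1 was left out (0.0495).

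No other BK beta gene passed with all libraries. Kcnmb4, the beta subunit known from neurons, had 28.8, 268 and 381 normalized counts in the controls and 39.7, 109 and 178 after YAP siRNA. Replicate 1 was lowest in both groups, and the log2 ratios of 0.45, −1.29 and −1.09 differ in sign. With a log2 fold change of −0.65 (95% interval −1.42 to 0.13), Kcnmb4 passed, as lower, only without replicate 1 of both groups. That Kcnmb2 and Kcnmb4 changed differently was not tested. Kcnmb1, the beta subunit of smooth muscle, had 4 reads in YAP siRNA replicate 3 and 0 elsewhere, and Kcnmb3 1 read in control replicate 3. In the GENCODE M21 annotation 2 antisense genes overlap exons of Kcnmb4, and whether the counting used strand is not given in the sources used here.

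The pore gene of the BK channel, Kcnma1, was near the limit of detection. It had 6, 1 and 13 reads in control replicates 1, 2 and 3 and 2, 1 and 7 after YAP siRNA. Per kb of exon this was 0.536, 0.0459 and 0.353 normalized counts in the controls and 0.142, 0.0594 and 0.621 after YAP siRNA, whereas the 4 BK beta genes summed to 43.6, 108 and 144 and 68.0, 257 and 308. In every library the beta genes were thus well above the pore gene per length, and after YAP siRNA the sum in replicates 2 and 3 was above every control while replicate 1 was not.

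Other accessory families were also above the pore family set beside them, per length. Kcnip1 encodes KChIP1, a calcium-binding partner of Kv4 channels, and had 325, 666 and 581 normalized counts in the controls and 430.4, 462 and 449 after YAP siRNA. Its YAP siRNA libraries were close together and lay within the range of the controls. The log2 fold change was −0.16 (95% interval −0.60 to 0.27 with the block), and Kcnip1 passed, as lower, only without replicate 1 of both groups (limma adjusted p = 0.00812 with the block). The 4 KChIP genes summed to 53.2 to 111 per kb over the 6 libraries, against 1.44 to 13.3 for the 3 Kv4 genes.

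Kv beta subunits are cytosolic proteins related to aldo-keto reductases that bind Kv1 channels, and all 3 were tested. Kcnab2 had 155, 599 and 616 normalized counts in the controls and 237, 431 and 417 after YAP siRNA, with replicate 1 lowest in both groups and the groups overlapping. Kcnab1 had 64.3 ± 24.1 in the controls and 78.6 ± 37.5 after YAP siRNA, and Kcnab3 57.6 ± 22.5 and 68.2 ± 16.3 (SD, n = 3). None of these 3 passed with all libraries, with log2 fold changes of −0.14, 0.22 and 0.29 and limma adjusted p = 0.708, 0.642 and 0.6 with the block. Kcnab2 passed, as lower, only without replicate 1 of both groups (0.00239 with the block). Per kb, the 3 Kv beta genes summed to 45.2 to 148 over the libraries and the 8 Kv1 genes to 5.60 to 25.6. The 5 single-span Kcne genes, partners of Kv7 and other channels, summed to 2.50 to 9.11 and the 5 Kv7 genes to 0 to 1.75. No gene of either family reached a mean of 10. Not divided by length, the order was reversed in control replicate 1 alone, with 6.07 normalized counts for Kcne and 12.1 for Kv7.

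**Figure D3:**
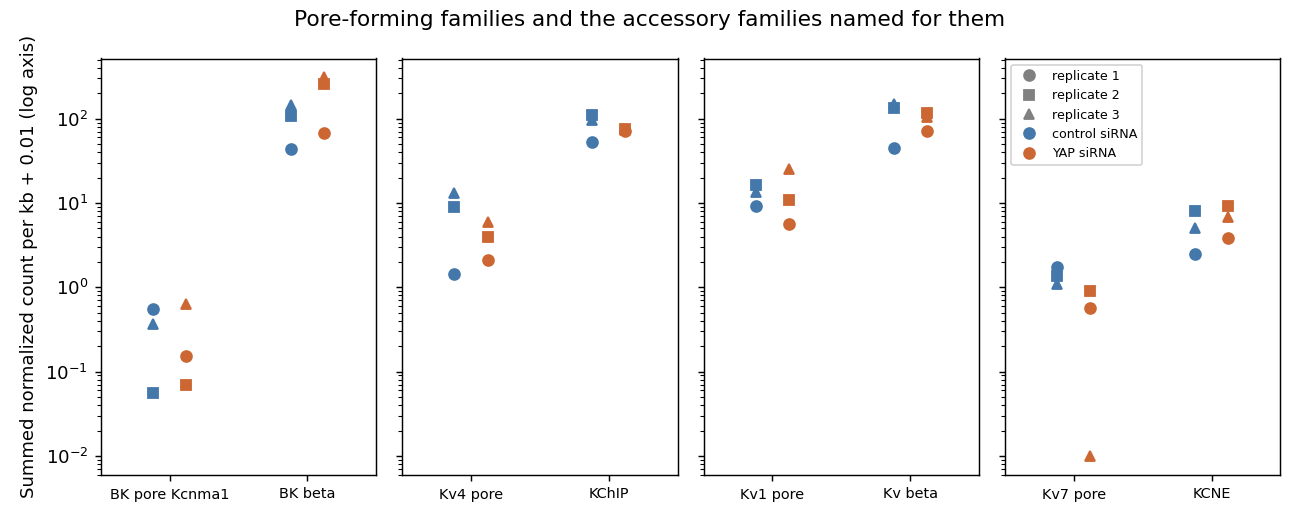
Summed normalized counts per kb of annotated exon, plus 0.01, on a log axis, for 4 pore-forming families (left in each panel) and the accessory families set beside them (right), blue for control and orange for YAP siRNA, with 1 marker shape per replicate number. BK beta genes lie at 43.6 to 308 and the BK pore gene at 0.0459 to 0.621; the lowest Kv7 point is a library with 0.

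The 2 members that are not channel subunits did not pass. Kcnq1ot1, an imprinted antisense RNA transcribed within Kcnq1 that silences neighbouring genes in cis, had 679.8, 649 and 536 normalized counts in the controls and 672, 820.5 and 603 after YAP siRNA (log2 fold change 0.16, 95% interval −0.13 to 0.46). Kcnq1 itself, which shares this locus on the opposite strand, had 0 to 3.12. Kcnrg, a cytosolic protein that hinders assembly of Kv1 channels, had 7.59, 3.12 and 5.07 in the controls and 22.8, 24.2 and 7.54 after YAP siRNA. It was higher in each pair, but YAP siRNA replicate 3 lay within the controls, and the log2 fold change of 1.53 had limma adjusted p = 0.131 with the block.

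How far the pore-forming genes, and all tested genes, differed between the groups varied with the replicate number. For the 18 pore-forming genes the median size of the log2 ratio, without sign, was 0.61 in pair 1, 0.93 in pair 2 and 1.13 in pair 3, against 0.20, 0.31 and 0.34 over all tested genes. For the 6 accessory genes it was 0.53, 0.60 and 0.58. The comparisons with all genes in this paragraph were not matched for abundance, and low counts vary more. A mean of at least 50 was reached by 8 of the 18 pore-forming and all 6 accessory genes, against 11225 of the 12820 tested genes. The ratio had the same sign in all 3 pairs for 8 of 18 pore-forming and 1 of 6 accessory genes, and for 54.5% of all tested genes. The accessory gene was Kcnmb2, and the 8 were Kcnn4, Kcnf1, Kcnh2, Kcnn3, Kcnk12, Kcnh5, Kcnk10 and Kcnh3. Control replicate 1 was below 0.5 times both other controls for 10 of the 26 Kcn genes, among them Kcnf1, Kcnh2, Kcnab2, Kcnmb4, Kcnt2 and Kcnd1, and for 12.7% of all tested genes. It was above 2 times both for 0 of the 26 and for 7.80% of all. Without replicate 1 of both groups the blocked fit called 2 pore-forming genes higher and 7 lower, and 1 accessory gene higher and 3 lower, among 2804 higher and 2792 lower genes in all; that fit has 4 libraries and 1 residual degree of freedom. The genes that passed with the block only there were Kcnn3, as higher, and Kcnk10, Kcnt2, Kcnd1, Kcnmb4, Kcnab2 and Kcnip1, as lower.

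**Figure D4:**
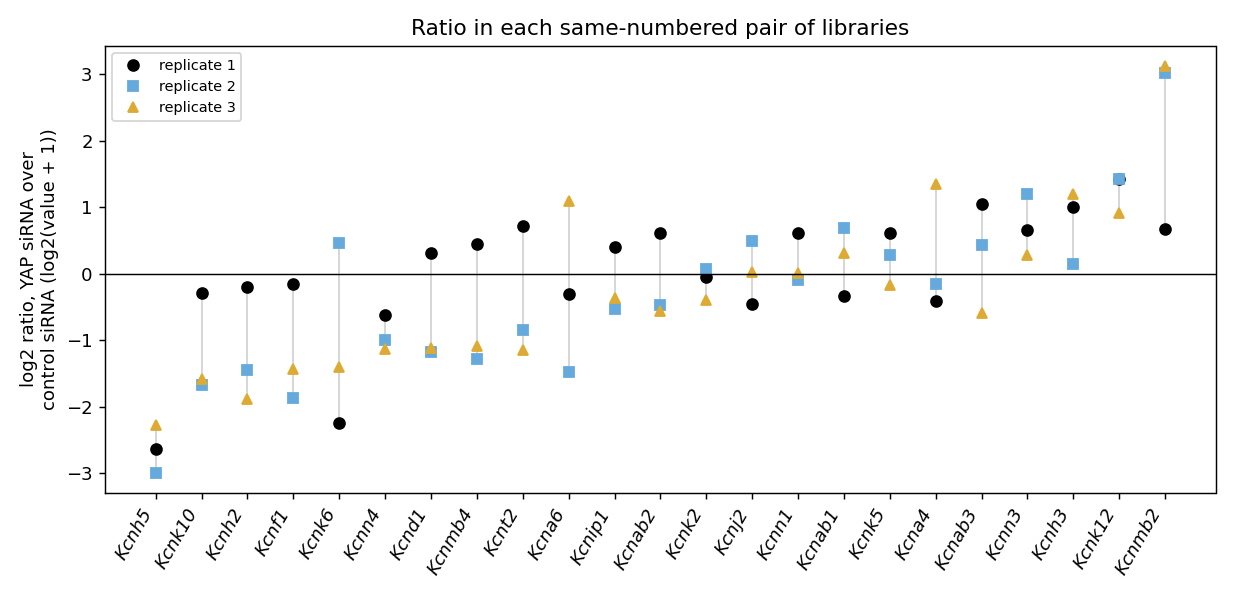
Log2 ratio of YAP siRNA to control siRNA (log2(value + 1) scale) in each same-numbered pair of libraries for 23 of the 24 subunits, ordered by mean log2 fold change. Kcnh5 lies between −2.99 and −2.27 in all pairs, while Kcnmb2, Kcnf1 and Kcnh2 are nearer 0 in pair 1 than in pairs 2 and 3.

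Genes that move potassium or partner its channels but carry other symbols were taken from a fixed list of 42, of which 20 were tested. In the blocked fit 2 were higher and 7 lower, against 8.32% and 8.96% of all genes, and the median log2 fold change was −0.41. Limma without pairing called 0 of them, with 9 at an unadjusted p under 0.05, against 12.2% of all tested genes. The list was drawn up with earlier results of these data known. Among the cation-chloride cotransporters, the potassium-chloride exporter gene Slc12a4 (KCC1) had 2269, 4177 and 4562 normalized counts in the controls and 1809, 2172 and 2429 after YAP siRNA. Each YAP siRNA library was below the control of the same number, but replicate 3 lay above control replicate 1. It fell by 0.73 on the log2 scale (SE 0.131, limma adjusted p = 0.00954 with the block). Its relative Slc12a7 (KCC4) fell from 2641 ± 469.8 to 1861 ± 165 (SD, n = 3), whereas Slc12a2 (NKCC1), which brings sodium, potassium and chloride in, rose from 4507 ± 996 to 6899 ± 386.

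Of the sodium-potassium pump genes, Atp1b1, which encodes a beta subunit, had 4593, 9896 and 12659.6 normalized counts in the controls and 2616, 3185 and 3436 after YAP siRNA, all below the controls. It fell by 1.44 on the log2 scale (SE 0.177; limma adjusted p, blocked 0.00239 and unblocked 0.226). Fxyd5, a pump regulator, fell from 3151 ± 138 to 1940.3 ± 266. Also passing with the block were Atp1b2 and Tmem38a, which fell, and Amigo1, a partner of Kv2 channels, which rose, with log2 fold changes of −3.32, −0.62 and 1.10. Atp1b2, another beta subunit gene, had 22.8, 589 and 824 in the controls and 13.2, 28.3 and 27.1 after YAP siRNA. With the block, 2 genes of the list, Atp1b1 among them, passed without replicate 2 of both groups, 6 genes passed without replicate 3 and 0 without a mean-variance trend. Of all 12820 tested genes, these fits called 123 higher and 177 lower without replicate 2, 538 and 590 without replicate 3, and 12 and 18 without a trend.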

How the data were processed

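Poly(A) RNA was sequenced as paired-end libraries with directional adapters, per the labels' protocols. TopHat2 2.0.9, HTSeq 0.6.1, DESeq 1.14.0 and build mm9 are named per the submitters' processing notes. The annotation, strand setting and filters are unstated there (not given in the sources used here), so genes sharing reads with paralogues or antisense genes are uncertain. The deposited unit is a signal: reads per gene after division by a size factor that the authors set for each library; 100% of values above 0 were whole multiples (within 0.01 reads) of 1 read, so reads were recovered (in YAP siRNA replicate 2, where 1 read was worth 1.01, this rests on a step close to 1). Within groups, libraries differed by more than sampling noise (chi-square per degree of freedom 8.04 to 267). Here log2(value + 1) was tested with limma 3.58.1 (R 4.3.3, mean-variance trend, two-sided, Benjamini-Hochberg over the 12820 genes whose mean reached 10), without a covariate in the main design. Deviations from group means between same-numbered libraries had correlations of 0.788, 0.705 and 0.532, all over 0.1, and equal numbers were therefore treated as pairs. Across numbers, control replicate 2 with YAP siRNA replicate 3 had 0.552, and control replicate 3 with YAP siRNA replicate 2 had 0.516. The data thus set replicate 1 apart but do not clearly tell pair 2 from pair 3. This pairing comes from the data, mainly from replicate 1, and no label names a shared day. On simulated counts, built with an effect shared by equal replicate numbers, the blocked fits recovered most of the larger known changes. This simulation assumes the pairing and cannot test it. It also gave each changed gene the same change in all pairs, whereas the ratios of genes such as Kcnmb2 and Kcnh2 differed between pairs. Alternatives were pseudocounts (0.5, 10), filters (none, 50), scalings, no trend, DESeq2 1.42.0 and edgeR 4.0.16 run on the recovered reads, and leaving out libraries. Values per library were given for Kcn genes that passed in either design, for those without overlap and a log2 fold change of at least 0.5, for the 3 most abundant of each role, and for others chosen after their values were seen; for the other list, up to 5 passing genes, and further ones chosen afterwards. A few genes of the lists are not reported here. Members and lists were chosen with earlier results of these data known. Exon lengths are unions of GENCODE M21 exons, another build than mm9, so only lengths and overlaps were used.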

Additional observations from a re-analysis of the deposited data

How the results depend on the processing

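In limma without pairing, pseudocounts, filters, scalings and the variance model left every count of calls at 0, as did edgeR; DESeq2 called 330 and 399 genes (0 and 2 pore-forming, 1 and 0 accessory) higher and lower. Leaving out 1 library gave 0 to 192 higher and 0 to 305 lower genes, 0 and 0 to 3 pore-forming and 0 to 1 and 0 accessory; the calls came without control replicate 1 (Kcnf1, Kcnh2 and Kcnh5 lower) or without YAP siRNA replicate 1 (Kcnmb2 higher). Without replicate 1 of both groups and without the block, a setting chosen after seeing the data, 1912 and 2106 genes (1 and 6 pore-forming, 1 and 3 accessory) were called. With the replicate block, the higher and lower calls were 1067 and 1149 genes (1 and 4 pore-forming, 1 and 0 accessory). Beside it, the block gave 1053 and 1137 genes (1 and 4 pore-forming, 1 and 0 accessory) with a pseudocount of 0.5, 1072 and 1163 genes (1 and 4 pore-forming, 1 and 0 accessory) with 10, 1000 and 1137 genes (0 and 4 pore-forming, 1 and 1 accessory) with no filter, 1049 and 1103 genes (0 and 3 pore-forming, 1 and 0 accessory) with a mean of at least 50, 1225 and 1027 genes (1 and 4 pore-forming, 1 and 0 accessory) rescaled to one total, 1167 and 1182 genes (1 and 4 pore-forming, 1 and 0 accessory) with quantiles, 1190 and 1289 genes (1 and 4 pore-forming, 1 and 0 accessory) in edgeR, 1182 and 1308 genes (0 and 4 pore-forming, 1 and 0 accessory) in DESeq2 and 12 and 18 genes (0 and 1 pore-forming, 0 and 0 accessory) without a trend. The blocked fit without replicate 3 of both groups gave 538 and 590 genes (0 and 3 pore-forming, 1 and 0 accessory), and over all 3 such fits there were 123 to 2804 higher and 177 to 2792 lower genes, 0 to 2 and 1 to 7 pore-forming and 0 to 1 and 0 to 3 accessory, the fewest without replicate 2. Log2 fold changes of Kcnn4, Kcnh5, Kcnf1, Kcnh2, Kcnk12, Kcnmb2, Kcnn3 and Yap1 kept their direction in every alternative run. Over single libraries left out they ranged from −1.06 to −0.84 for Kcnn4, −3.00 to −2.40 for Kcnh5, −1.75 to −0.82 for Kcnf1, −1.89 to −0.68 for Kcnh2, 0.44 to 1.98 for Kcnk12 and 1.88 to 2.96 for Kcnmb2. Over all alternatives the ranges were wider for Kcnn4 (−1.07 to −0.81), Kcnh5 (−3.00 to −1.87), Kcnf1 (−1.75 to −0.80) and Kcnmb2 (1.85 to 3.07). Of all 26 Kcn genes, 14 kept their direction in every alternative and 12 (7 pore-forming, 5 accessory), none of which passed with all libraries, reversed in at least 1, 2 of them also in edgeR or DESeq2 with all libraries. Among the most abundant of each role these were Kcnab2 (−0.80 to 0.20 over single libraries left out, 0.025 without pair 2 and 0.069 without pair 3, both blocked), Kcnip1 (−0.48 to 0.041 over single libraries, −0.45 to 0.017 over pairs) and Kcnk2 (−0.23 to 0.0096 over pairs left out). The causes were not tested. Depth limits the genes with few reads, such as Kcnk6, Kcnh5 after YAP siRNA and Kcnma1.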

Other observations

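Of the 69 Kcn genes below a mean of 10, 41 had at least 1 read, 31 pore-forming and 10 accessory. The share of Kcn genes listed at 0 in every library was 29.5%, and 25.1% over all genes listed. Kcnip2, which encodes KChIP2, a partner of Kv4 channels known from the heart, had 1, 13 and 16 reads in control replicates 1, 2 and 3 and 0, 2 and 0 in YAP siRNA replicates 1, 2 and 3; it was the one such gene that limma with the block called when no filter was applied (log2 fold change −2.09, adjusted p = 0.0467). The acid-sensitive two-pore channel gene Kcnk3 had 0, 5 and 7 reads in the controls and 0 in each YAP siRNA library, and did not pass (0.166). Kcnk7, a two-pore gene, had 0 reads in each control and 0, 4 and 4 after YAP siRNA, and did not pass (0.126). These 3 genes were singled out after their values were seen. Reads are not scaled for depth, and control replicates 2 and 3 were the deepest libraries. In these 2 libraries Kcnip2 had 10.1 and 7.37 normalized counts and Kcnk3 3.90 and 3.23.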
